A study of Mus musculus with 7 samples.

Results

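The extracellular matrix glycoproteins examined here were 10 secreted noncollagen proteins of muscle and its progenitors, chosen by gene symbol: Fn1, Tnc, Sparc, Spp1, Postn, Thbs1, Thbs2, Fbn1, Fbln2 and Bgn. All 10 were among the 56748 genes of the count files, and 9 of them were among the 9489 genes with enough counts to be tested. RNA from muscle stem cells (MuSCs, the Pax7-expressing progenitors of skeletal muscle) of adult mice was sequenced as long-read nanopore cDNA in 3 WT and 4 Jag2sm libraries. The Jag2sm mice were homozygous for sm, a missense allele that arose naturally in Jag2, a gene for a Notch ligand, and that lowers its function without removing its RNA. The labels write this genotype as Jag2-/-. In both genotypes, cells of the hind limb were depleted of CD31, CD45 and Sca1, enriched for integrin alpha-7, and kept on collagen-coated plates in growth medium with serum and bFGF. The WT strain, the time in culture and the sex of each library are not given in the sources used here. Nothing in the labels says whether libraries came from separate mice or cultures, so the p-values measure only the spread between these libraries. Each library carries a batch number equal to its replicate number, so that batches 1 to 3 hold 1 library of each genotype and batch 4 holds Jag2sm replicate 4 alone. What a batch stands for is not given in the sources used here.

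Matricellular proteins are secreted into the matrix and act on cells through integrins and other receptors rather than as load-bearing fibers. Osteopontin (Spp1), tenascin-C (Tnc), the thrombospondins, SPARC and periostin belong to this class, and several are known to be made during muscle repair. Fibronectin, fibrillin-1, fibulin-2 and biglycan are built into the interstitial matrix, and fibronectin made by activated MuSCs is a known part of their niche.

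Gene counts per library ranged from 187834 in WT replicate 1 to 1937581 in Jag2sm replicate 3, so that the smallest level that 3 counts give was 17.3 CPM in WT replicate 1 and 1.48 to 4.24 CPM in the other 6. CPM here is the normalized count, scaled per 1e6 TMM-adjusted counts. WT replicate 1 also had 45.1% of its aligned reads outside annotated genes, against 20.8% to 25.7% elsewhere, and 46.0% to 50.8% of reads were not aligned in Jag2sm replicates 1, 2 and 4, against 2.44% to 3.24% in the others. The myogenic markers Pax7 (28.8 to 95.7 CPM in WT, 100.4 to 172 in Jag2sm), Myod1 (698 to 830 and 615 to 806) and Cdh15 (115 to 207 and 59.4 to 162) were found in every library. Of the other listed myogenic markers, Itga7, Des and Sdc4 were also above the floor in every library. Myf5 and Vcam1 were at 5.76 CPM in WT replicate 1, under its floor. Calcr and Chrdl2 had 1 and 3 counts over all libraries. Jag2 itself was at 80.7, 114 and 116 CPM in WT and 42.4, 78.8, 71.9 and 77.4 in Jag2sm (log2 fold change -0.64, edgeR adjusted p = 0.166), a level that does not check the label of a missense allele.

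The comparison asks which of these transcripts differ in level between WT MuSCs and MuSCs with reduced Jag2 function. A single member, Spp1, passed the test, and it was higher in Jag2sm MuSCs. That is 1 of 9 tested members called higher, where 1.42% of all tested genes were called higher, and 0 of 9 called lower, where 4.84% were called lower. The members were chosen with earlier results of these data known, so the shares given here do not test the group. At an unadjusted p under 0.05, edgeR had 3 of 9 members higher (Spp1, Tnc and Fn1), against 8.76% of all tested genes, and 0 lower, against 11% of all. The adjusted calls of DESeq2 and limma-voom were 1 member higher and 0 lower in each. Every Jag2sm library lay above every WT library for Spp1 and Thbs2, a pattern that 10.3% of all tested genes showed, and no member lay below in every library, as 12.2% of genes did. Of the 9 members, 7 had a positive log2 fold change, as had 5123 of all 9489 tested genes. The median was 0.27 over the members and 0.05 over all genes. In bulk RNA, fewer cells that express a gene and less of its RNA in each cell cannot be told apart.

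The 250 bases before the start of the annotated transcript are shown for Spp1, Tnc and Fn1, the 3 members with the smallest p-values. Capitals mark matches, on either strand, to the E-box CANNTG bound by MYOD and its relatives, the core TGGGAA bound by the Notch partner RBPJ (TTCCCA on the other strand), and the MCAT element CATTCC bound by TEAD factors. Sequences run 5′ to 3′ along the gene in the GRCm39 mouse genome.
Spp1, chr5:104581915-104582164, plus strand: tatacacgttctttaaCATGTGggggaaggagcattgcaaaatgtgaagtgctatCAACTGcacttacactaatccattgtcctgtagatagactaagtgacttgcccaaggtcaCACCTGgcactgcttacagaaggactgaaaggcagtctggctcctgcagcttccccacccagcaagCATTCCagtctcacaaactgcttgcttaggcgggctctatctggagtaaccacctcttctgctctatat
Tnc, chr4:63965444-63965693, minus strand: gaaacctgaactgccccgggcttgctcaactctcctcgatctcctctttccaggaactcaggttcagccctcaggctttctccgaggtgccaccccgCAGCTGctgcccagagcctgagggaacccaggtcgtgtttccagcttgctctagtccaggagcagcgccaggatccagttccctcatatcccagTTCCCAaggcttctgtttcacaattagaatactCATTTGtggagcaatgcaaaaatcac
Fn1, chr1:71692420-71692669, minus strand: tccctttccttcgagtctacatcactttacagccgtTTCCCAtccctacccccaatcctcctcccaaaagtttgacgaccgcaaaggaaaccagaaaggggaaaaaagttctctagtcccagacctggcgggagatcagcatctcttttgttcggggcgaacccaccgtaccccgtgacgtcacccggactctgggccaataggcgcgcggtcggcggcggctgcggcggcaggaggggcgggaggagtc
Spp1 held 3 E-boxes, beginning 234, 195 and 135 bases before the start, and 1 MCAT element at 69 bases. Tnc held 2 E-boxes, at 153 and 26 bases, and 1 RBPJ core at 59 bases, and Fn1 held 1 RBPJ core at 214 bases. An E-box occurs in 58.7% of the same windows of 9476 tested genes, the RBPJ core in 21%, and the MCAT element in 11.5%, so these matches describe the letters and do not mark sites in use.

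Spp1 encodes osteopontin, a secreted phosphoprotein that binds integrins and CD44 and is known from bone, macrophages and injured muscle. The gene (ENSMUSG00000029304.15 in the files) lies on chromosome 5 at 104582165 to 104589235 on the plus strand. Its level was 1418, 2052 and 1302 CPM in WT replicates 1 to 3, and 8234, 4085, 4124 and 3340 CPM in Jag2sm replicates 1 to 4. The lowest Jag2sm library was thus above the highest WT library, and Jag2sm replicate 1 stood far above the other 3. WT libraries averaged 1591 ± 404 CPM (SD, n = 3), and Jag2sm libraries averaged 4946 ± 2221 CPM (SD, n = 4). The fitted difference was 3.10-fold (95% interval 1.73 to 5.58), a log2 fold change of 1.63 ± 0.38 (SE), with an edgeR quasi-likelihood adjusted p of 0.0302. A two-sided exact permutation test over the 35 ways to regroup the libraries gave p = 0.0286, the smallest it can give. Spp1 took 0.118% to 0.192% of gene counts in WT and 0.335% to 0.867% in Jag2sm. The widest exact binomial 95% intervals were 0.115% to 0.148% in WT replicate 1 and 0.845% to 0.889% in Jag2sm replicate 1, and they cover counting error only.

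The Spp1 difference was positive in each batch that holds both genotypes, at 2.54, 0.99 and 1.66 in log2 CPM for batches 1 to 3. With the replicate number as a block, a fit in which Jag2sm replicate 4 carries no information on genotype, the log2 fold change was 1.73 and the adjusted p 0.0812, so the call was lost. Leaving out WT replicate 1, 2 or 3 raised the adjusted p to 0.052, 0.0636 or 0.151, and leaving out Jag2sm replicate 2 raised it to 0.0712, so each of these ended the call too. It held without Jag2sm replicate 1, with a log2 fold change of 1.27 and an edgeR adjusted p of 0.0492. Over all 18 alternatives the log2 fold change stayed between 1.27 and 1.88, and the adjusted p, from edgeR, limma or DESeq2, lay between 8.77e-05 and 0.151.

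**Figure D1:**
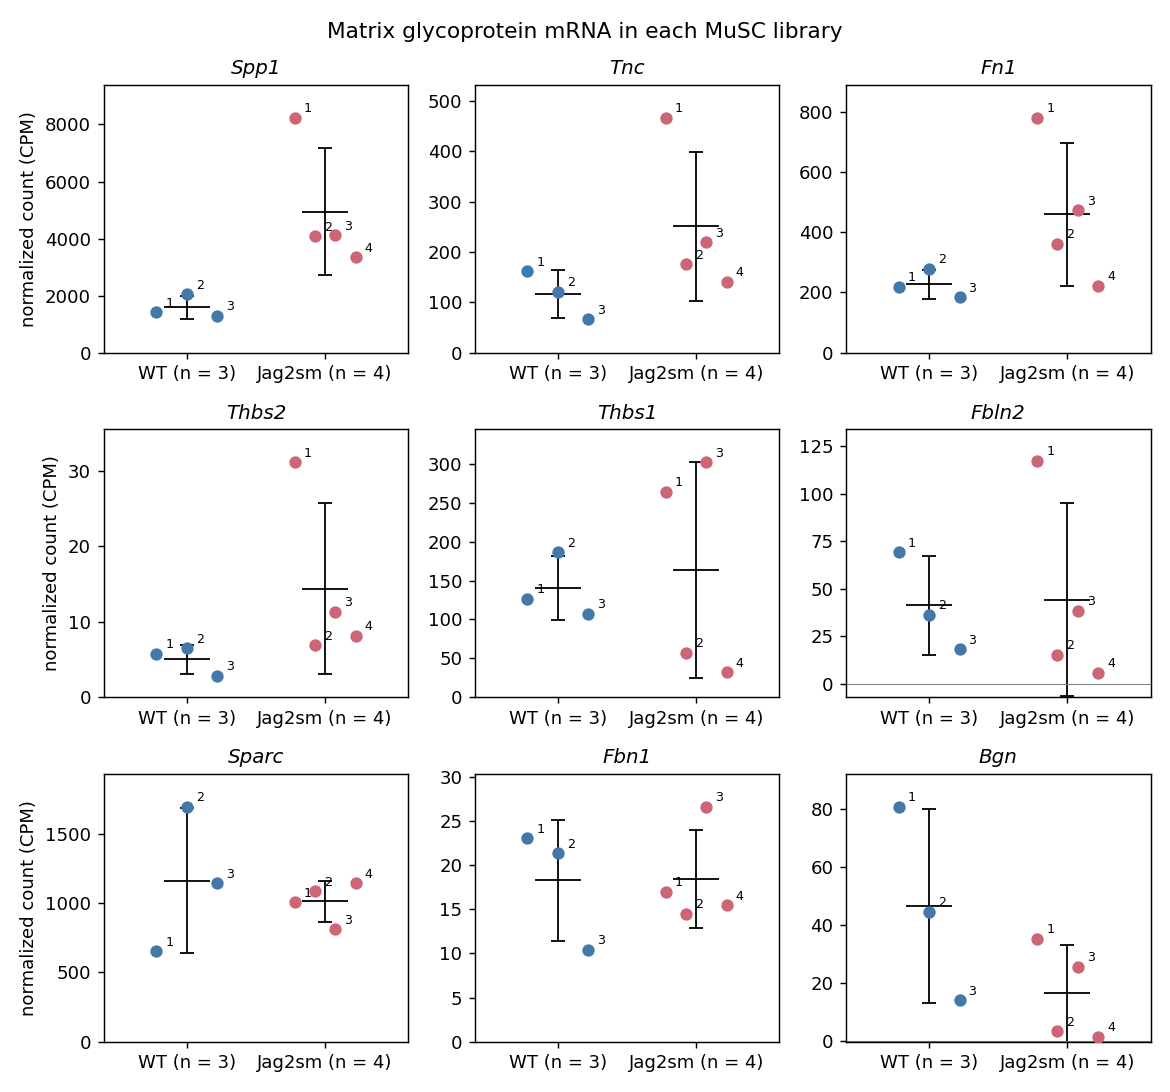
Each point is the normalized count (CPM, linear axis) of one library, numbered by replicate, for each of the 9 tested members, with the mean and SD of 3 WT and 4 Jag2sm libraries in black. The Jag2sm points lie above the WT points without overlap for Spp1 and Thbs2, and Jag2sm replicates 1 and 3 are the highest Jag2sm libraries in every panel but that of Sparc.

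Several values moved with genotype alongside Spp1. The 14 markers of differentiated muscle summed to 30170 to 49500 CPM in WT and 1184 to 7483 CPM in Jag2sm, and all 12 that were tested were called lower, with a median log2 fold change of -3.24. Des, the intermediate filament gene of muscle cells, was called lower as well (log2 fold change -1.63, edgeR adjusted p = 0.0244). The part of this difference in cell state in the Spp1 result was not tested. Of the 9 immune markers, 5 were at 0 in all 7 libraries, among them Ptprc (the CD45 gene) and Adgre1, a macrophage marker, and the list summed to 0 to 1.94 CPM in WT and 0.986 to 4.89 CPM in Jag2sm. The most Spp1-rich library, Jag2sm replicate 1, also had Rgs5, a pericyte marker, at 645 CPM. Rgs5 was at 25.3 to 40.4 CPM in the other Jag2sm libraries and 11.5 to 14.2 in WT. The other mural markers listed with Rgs5 were not raised in that library. Pdgfrb, Kcnj8, Abcc9 and Myh11 were at 0 there, Cspg4 at 1.41 CPM and Acta2 at 854 CPM. For Acta2 the WT libraries had 980 to 1902 CPM. The others, apart from Acta2, had at most 53 counts each over all libraries, so their low values carry little information. The part of the Rgs5 level in the Spp1 level of this library was not tested.

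Tenascin-C is a large matricellular glycoprotein of developing and injured tissue that weakens the attachment of cells to fibronectin. Tnc (ENSMUSG00000028364.16) lies on chromosome 4 at 63878014 to 63965443 on the minus strand. It measured 161, 121 and 66.4 CPM in WT replicates 1 to 3 and 467, 176, 220 and 141 CPM in Jag2sm replicates 1 to 4. The highest WT library, replicate 1, lay above the lowest Jag2sm library, replicate 4, and this was the only overlap. The means were 116 ± 47.7 (SD, n = 3) and 251 ± 147 CPM (SD, n = 4), with a log2 fold change of 1.17 ± 0.44 (SE, 95% interval 0.19 to 2.16). The edgeR adjusted p was 0.166 and the two-sided exact permutation p 0.114, so the difference did not pass the test. It was positive in batches 1, 2 and 3, at 1.52, 0.54 and 1.70 in log2 CPM. Exons of 8030451A03Rik lie on the opposite strand over Tnc, and that gene had 48 counts in all, against 285 counts of Tnc in WT and 1204 in Jag2sm.

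Fibronectin is the multidomain matrix glycoprotein that cells bind through alpha-5 beta-1 and other integrins and assemble into fibrils. Fn1 (ENSMUSG00000026193.16) lies on chromosome 1 at 71624673 to 71692419 on the minus strand. Its level was 219, 279 and 184 CPM in WT and 779, 361, 474 and 223 CPM in Jag2sm replicates 1 to 4. Jag2sm replicate 4 fell between WT replicates 1 and 2, and the other 3 Jag2sm libraries were above all WT libraries. The means were 227 ± 47.8 (SD, n = 3) and 459 ± 237 CPM (SD, n = 4). The log2 fold change was 1.00 ± 0.39 (SE, 95% interval 0.15 to 1.86) with an edgeR adjusted p of 0.174, which did not pass. The two-sided exact permutation p was 0.114, and the differences within batches 1 to 3 were 1.82, 0.37 and 1.36 in log2 CPM.

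Tnc and Fn1 were called under few of the alternatives. With every gene of at least 1 count tested in edgeR, Tnc (log2 fold change 1.21, edgeR adjusted p = 0.00206) and Fn1 (1.04, 0.0226) were called higher, and Bgn (-1.27, 0.00676) lower. DESeq2, also fitted without the count filter, called neither Tnc (adjusted p = 0.106) nor Fn1 (0.108). Tnc was also called in the fit that took out the trend on transcript length together with the replicate block (1.29, adjusted p = 0.0336). In none of the other alternatives was Tnc or Fn1 called, though both stayed positive in all 18, between 0.71 and 1.40 for Tnc and between 0.63 and 1.24 for Fn1.

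**Figure D2:**
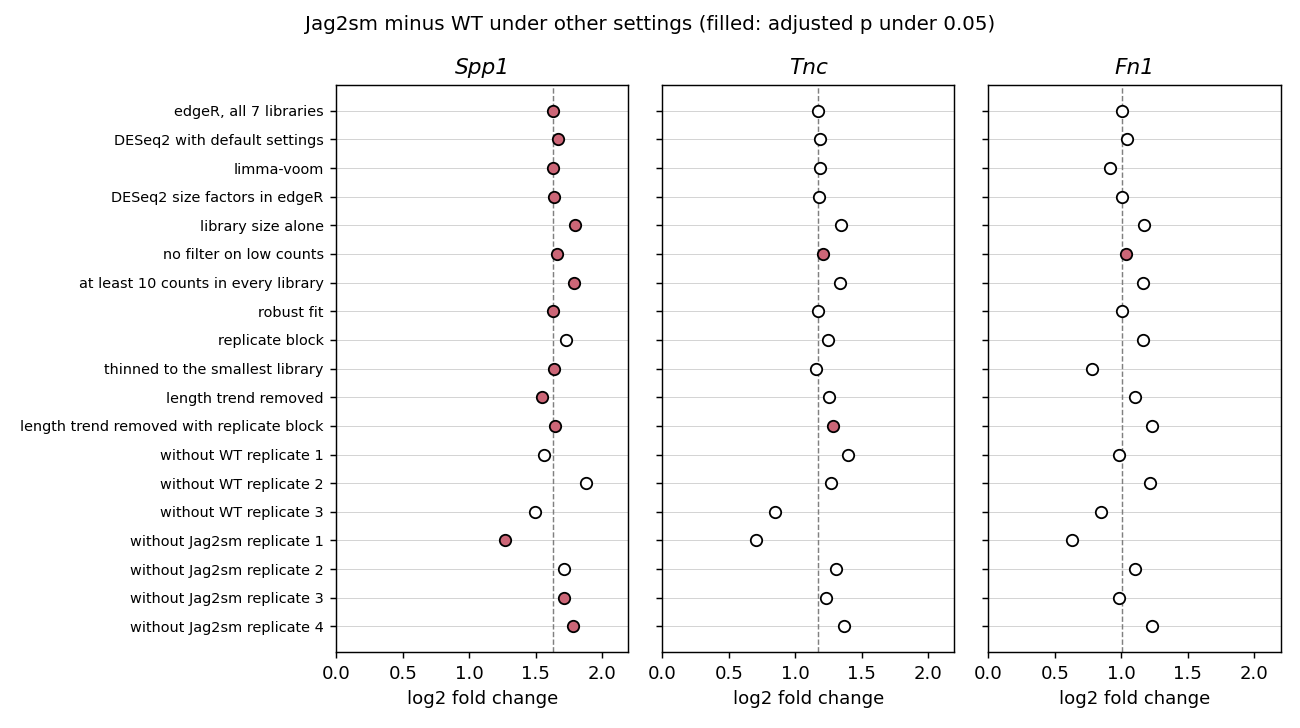
Log2 fold change of Spp1, Tnc and Fn1 (x axis, Jag2sm minus WT) under the main settings and 18 alternatives (y axis), filled where the adjusted p was under 0.05, with the main value as a dashed line. All values are above 0, and Spp1 is called in 13 of the alternatives, Tnc in 2 and Fn1 in 1.

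Thrombospondins 1 and 2 are trimeric calcium-binding glycoproteins that bind CD47 and CD36 and hold back vessel growth, and thrombospondin-1 also activates latent TGF-beta. Thbs2 (ENSMUSG00000023885.10, chromosome 17 at 14885761 to 14914528, minus strand) was sparse, with 14 counts over the WT libraries and 65 over the Jag2sm libraries. It measured 5.76, 6.46 and 2.85 CPM in WT and 31.1, 6.91, 11.3 and 8.15 CPM in Jag2sm replicates 1 to 4. The groups did not overlap, but Jag2sm replicate 2 exceeded WT replicate 2 by only 0.08 in log2 CPM, and in WT replicate 1 the level rests on 1 count and is under its floor of 17.3 CPM. The log2 fold change of 1.38 ± 0.65 (SE, 95% interval -0.05 to 2.82) had an edgeR adjusted p of 0.272 and a two-sided exact permutation p of 0.0857, and did not pass.

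Thbs1 (ENSMUSG00000040152.9, chromosome 2 at 117941974 to 117957616, plus strand) measured 127, 186 and 107 CPM in WT and 264, 57.4, 302 and 31.8 CPM in Jag2sm replicates 1 to 4. Jag2sm replicates 1 and 3 were above every WT library and Jag2sm replicates 2 and 4 below every one, a 9.50-fold range within the genotype. The mean of 164 ± 139 CPM (SD, n = 4) was close to that of WT, 140.0 ± 41.1 CPM (SD, n = 3), but the log2 fold change of 0.20 had a 95% interval from -1.25 to 1.65 (edgeR adjusted p = 0.917), which as a ratio of Jag2sm to WT runs from 0.421 to 3.14. Batches 1 and 3 gave positive differences, 1.05 and 1.48 in log2 CPM, and batch 2 a negative one, -1.67.

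SPARC, or osteonectin, binds collagen and calcium and loosens cell attachment. Sparc (ENSMUSG00000018593.14, chromosome 11 at 55285317 to 55314067, minus strand) was an abundant member with a narrow range in Jag2sm. It measured 651, 1694 and 1142 CPM in WT and 1005, 1086, 811 and 1144 CPM in Jag2sm replicates 1 to 4. All Jag2sm libraries fell inside the WT range, and the widest Jag2sm ratio was 1.41-fold. The log2 fold change was -0.21 ± 0.32 (SE, 95% interval -0.91 to 0.49, edgeR adjusted p = 0.774), which as a ratio of Jag2sm to WT runs from 0.531 to 1.41. Batch 1 gave a positive difference, 0.62 in log2 CPM, and batches 2 and 3 negative ones, -0.64 and -0.49.

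Periostin, which binds integrins and collagen and is made mainly by fibroblasts, was hardly detected. Postn (ENSMUSG00000027750.17, chromosome 3 at 54268501 to 54298471, plus strand) had 0 counts in the 3 WT libraries and 1 count in the Jag2sm libraries, in replicate 2. Counts of 3 would have given 1.08 CPM over the WT libraries and 0.555 CPM over the Jag2sm libraries, so levels under these limits were not detectable and no fold is given. Of the 12 markers of the fibroblast-like cells of muscle, Pdgfra, a defining one, had 8 counts over all 7 libraries and Dcn had 3. The most abundant, named after their values were seen, were Col3a1 with 1897 counts and Gsn with 786. Neither was called, but both log2 fold changes were positive, at 0.93 (edgeR adjusted p = 0.262) and 1.03 (edgeR adjusted p = 0.0894).

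Fbn1, Fbln2 and Bgn belong to the fibrillar or fiber-associated matrix. Fibrillin-1 forms the microfibrils that carry latent TGF-beta, fibulin-2 links fibrillin and fibronectin networks, and biglycan is a small leucine-rich proteoglycan that binds collagen and the sarcoglycans. Fbn1 (ENSMUSG00000027204.14, chromosome 2 at 125142514 to 125349913, minus strand) measured 23.1, 21.3 and 10.4 CPM in WT and 17.0, 14.5, 26.6 and 15.5 CPM in Jag2sm, with a log2 fold change of 0.13 (95% interval -0.69 to 0.95, edgeR adjusted p = 0.902). The genotypes overlapped, with the lowest library in WT and the highest in Jag2sm.

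Fbln2 (ENSMUSG00000064080.13, chromosome 6 at 91189437 to 91249522, plus strand) measured 69.2, 36.2 and 18.0 CPM in WT and 117, 15.2, 38.4 and 5.71 CPM in Jag2sm replicates 1 to 4. The Jag2sm values spanned 20.6-fold, and lay both above and below all WT libraries. The lowest, in replicate 4, rests on 7 counts. The log2 fold change was 0.27 (95% interval -1.57 to 2.10, edgeR adjusted p = 0.912). Within batches 1 to 3 the differences were 0.75, -1.16 and 1.03 in log2 CPM.

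Bgn (ENSMUSG00000031375.18, chromosome X at 72527208 to 72539541, plus strand) measured 80.7, 44.6 and 14.2 CPM in WT and 35.4, 3.46, 25.6 and 1.63 CPM in Jag2sm replicates 1 to 4. Jag2sm replicates 2 and 4 were below every WT library and replicates 1 and 3 within the WT range. The levels in Jag2sm replicates 2 and 4 rest on 5 and 2 counts, and that of replicate 4 is under its floor of 2.45 CPM. The log2 fold change was -1.30 ± 0.81 (SE, 95% interval -3.08 to 0.49), the lowest of the 9, with an edgeR adjusted p of 0.414, and it did not pass. Batches 1 and 2 gave -1.15 and -3.16 and batch 3 gave 0.78 in log2 CPM.

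**Figure D3:**
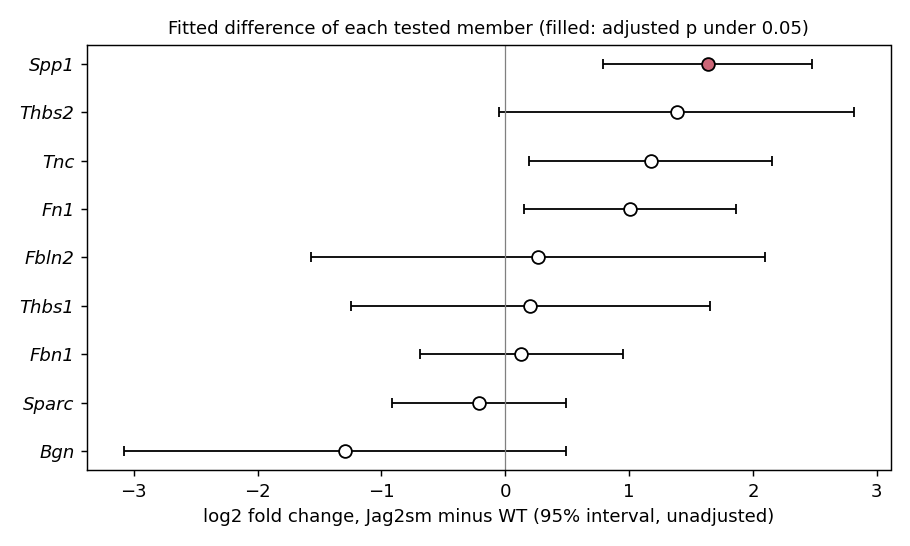
Fitted log2 fold change (Jag2sm minus WT, x axis) of the 9 tested members with unadjusted 95% intervals as bars, filled where the adjusted p was under 0.05. Spp1 is the one filled point, at 1.63. The intervals of Tnc and Fn1 also lie above 0, and those of the other 6 cross it.

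Within the Jag2sm genotype, most members followed the same order of libraries. Jag2sm replicates 1 and 3 held the 2 highest Jag2sm values for 8 of the 9 tested members, and for the remaining one, Sparc, they held the 2 lowest. Over all tested genes these orders occurred in 18.9% and 20% of genes. Jag2sm replicate 1 alone was highest for 6 of the 9, against 29.6% of all genes. This order was chosen for description after the values were seen, and it carries no test. The widest ranges within Jag2sm were those of Bgn (21.7-fold), Fbln2 (20.6-fold) and Thbs1 (9.50-fold), and the narrowest those of Sparc (1.41-fold) and Fbn1 (1.83-fold). The lowest Bgn and Fbln2 values, both in Jag2sm replicate 4, rest on 2 and 7 counts, so the sizes of these ranges are uncertain.

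**Figure D4:**
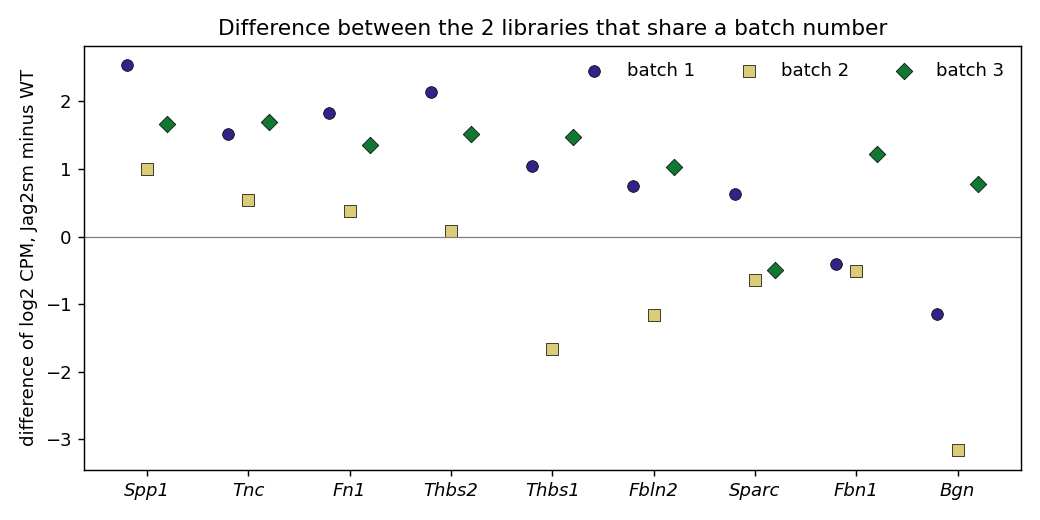
Difference of log2 CPM (Jag2sm minus WT, y axis) between the libraries sharing a batch number, for batches 1 to 3 and each tested member. Spp1, Tnc, Fn1 and Thbs2 are above 0 in all 3 batches, while the other 5 are below 0 in batch 2, from -0.51 for Fbn1 to -3.16 for Bgn.

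Levels were compared between genes as CPM per kilobase of the annotated canonical transcript. Counts of long-read cDNA need not scale with transcript length, so the orders and positions below hold for this scale only. By mean CPM alone, Tnc (116) lay above Bgn (46.5) in WT, and Fbn1 (18.4) above Thbs2 (14.4) in Jag2sm. Per kilobase both orders were reversed. In WT the order was Spp1 (714), Sparc (503), Fn1 (27.0), Thbs1 (22.5), Bgn (19.2), Tnc (15.9), Fbln2 (8.59), Fbn1 (1.52) and Thbs2 (0.848), as means in CPM per kilobase. Among neighbors in that order, the library ranges did not overlap only between Sparc and Fn1 and between Fbln2 and Fbn1. In Jag2sm the order was Spp1 (2219), Sparc (438), Fn1 (54.6), Tnc (34.4), Thbs1 (26.3), Fbln2 (9.23), Bgn (6.82), Thbs2 (2.43) and Fbn1 (1.53), and only Spp1 from Sparc and Sparc from Fn1 were separated. Spp1 and Sparc were the 2 main transcripts of the group in both genotypes, per kilobase and by mean CPM alone. Among 9477 genes ranked by mean CPM per kilobase, Spp1 stood at position 122 in WT and 41 in Jag2sm, Sparc at 163 and 171, and Fn1 at 2228 and 1169.

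The related genes were read from lists of known relatives and partners, of which only those with enough counts were tested. These lists too were chosen with earlier results of these data known, so their shares do not test them as groups. Of 40 other matrix glycoproteins, 15 were tested, 12 were positive with a median log2 fold change of 0.48, and 1 was called higher by edgeR. None was called lower. Over all tested genes, 1.42% were called higher and 4.84% lower. At an unadjusted p under 0.05, edgeR had 6 of the 15 higher and 0 lower, against 8.76% and 11% of all tested genes. DESeq2 called 3 of this list higher, edgeR with library size alone 3, and limma-voom 0. The gene called by edgeR was Ecm1, a secreted glycoprotein of the matrix, at 17.3, 23.9 and 7.59 CPM in WT and 119, 67.7, 40.9 and 44.8 CPM in Jag2sm (log2 fold change 1.99, edgeR adjusted p = 0.0387). All Jag2sm libraries were above all WT libraries, but the call was lost with limma-voom and without any one of WT replicates 1, 2 or 3 or Jag2sm replicates 1 or 2 (adjusted p of 0.0512 to 0.181). Of 18 matrix proteoglycans, only 2 were tested, and they moved apart. Vcan, the large chondroitin sulfate proteoglycan versican, rose from 11.5, 47.8 and 23.7 CPM in WT to 82.0, 87.8, 68.0 and 88.0 CPM in Jag2sm (1.30, edgeR adjusted p = 0.0343). Its level in WT replicate 1 is under the floor of that library, 17.3 CPM. Ogn, a small leucine-rich proteoglycan, fell from 34.6, 80.2 and 107 CPM to 26.9, 15.9, 7.39 and 31.0 CPM (-2.07, edgeR adjusted p = 0.0211). Neither gene's groups overlapped. Both calls were lost without some single libraries: that of Vcan without WT replicate 3 (adjusted p = 0.184) or Jag2sm replicate 1 (0.0712), 2 (0.100) or 4 (0.073) and after thinning to the smallest library (0.202), and that of Ogn when WT replicate 2, WT replicate 3 or Jag2sm replicate 2 was left out (0.0745, 0.119 and 0.0812).

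Of 20 cell surface receptors for these proteins, 15 were tested, 0 were called higher by edgeR and 3 lower, with a median of 0.32. Over all tested genes, 1.42% were called higher and 4.84% lower. At an unadjusted p under 0.05, 6 of the 15 were higher and 4 lower, where 8.76% and 11% of all tested genes were. DESeq2 called 2 higher and 4 lower, and limma-voom 0 higher and 3 lower. Cd36, a receptor of thrombospondins and fatty acids, was at 110, 64.0 and 47.4 CPM in WT and 1.41, 2.07, 0.493 and 1.63 CPM in Jag2sm. Its log2 fold change was -5.56 (edgeR adjusted p = 0.000713). All its Jag2sm levels lie at or under the floors of 4.24, 2.07, 1.48 and 2.45 CPM for replicates 1 to 4. The size of its fold change is therefore uncertain. Itgb6, which pairs with alpha-v to bind fibronectin and latent TGF-beta, was at 80.7, 67.2 and 61.7 CPM in WT and 24.0, 5.53, 6.41 and 21.2 CPM in Jag2sm (-2.37, edgeR adjusted p = 0.0131). The call of Itgb6 was lost without WT replicate 2 (adjusted p = 0.0515). Itga4, the alpha-4 subunit that binds fibronectin and osteopontin, fell from 34.6, 20.0 and 20.9 CPM to 7.07, 7.60, 9.86 and 8.15 CPM (-1.42, edgeR adjusted p = 0.0263). Its call was lost with the replicate block (-1.43, adjusted p = 0.0969), in DESeq2 (0.0557), and without WT replicate 2 or 3 or Jag2sm replicate 1, 2 or 4 (0.0574 to 0.0859).

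Of 30 genes of matrix processing and cross-linking, 16 were tested, 12 were positive with a median of 0.07, and 1 was called lower. Over all tested genes, 4.84% were called lower. At an unadjusted p under 0.05, edgeR had 2 of the 16 higher and 1 lower, against 8.76% and 11% of all tested genes. Adamts5, a protease that cleaves versican and aggrecan, was at 23.1, 32.3 and 22.8 CPM in WT and 5.66, 6.91, 7.88 and 4.89 CPM in Jag2sm (log2 fold change -2.03, edgeR adjusted p = 0.00605). The strand setting of the counting is not given in the sources used here, and reads of Ecm1, Ogn and Itga4 could be shared with genes on the opposite strand that overlap their exons (Gm65204, Cenpp and Cerkl).

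**Figure D5:**
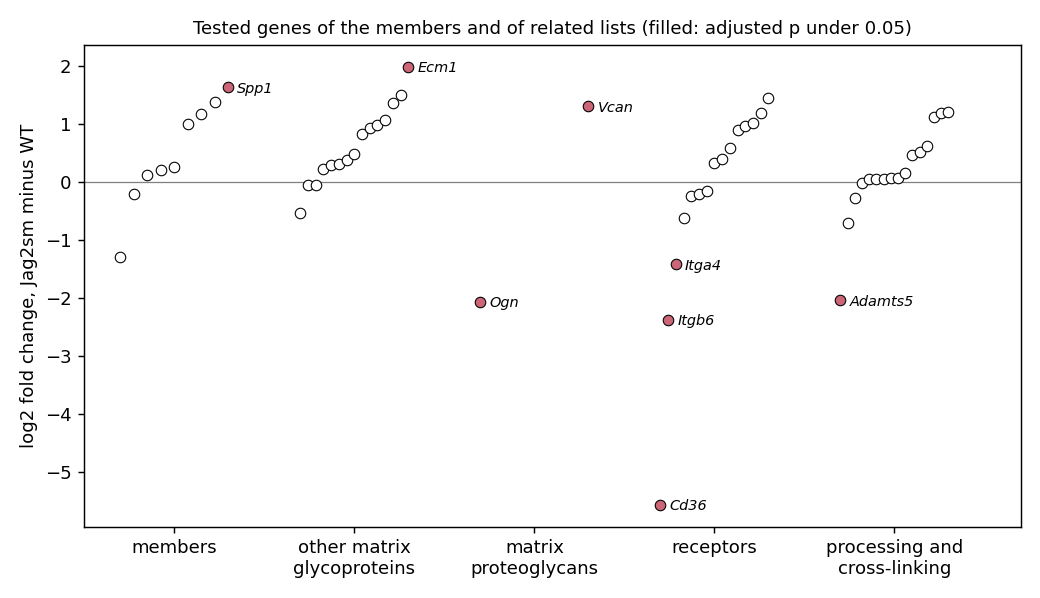
Log2 fold change (Jag2sm minus WT, y axis) of each tested gene of the members and of 4 lists of related genes (x axis), filled and named where the adjusted p was under 0.05. Spp1, Ecm1 and Vcan are the filled points above 0, and Ogn, Cd36, Itgb6, Itga4 and Adamts5 those below.

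Markers of other cells known to make these proteins were examined as lists. The 12 fibro-adipogenic markers summed to 80.7 to 306 CPM in WT and 270 to 531 CPM in Jag2sm, with 2 of the 12 at 0 in all libraries. Of the 3 tested, 0 were called by edgeR and 1 had an unadjusted p under 0.05. All 3 were positive, with a median log2 fold change of 0.93, against 0.05 over all tested genes. The 8 endothelial markers summed to 4.74 to 11.5 and 7.88 to 17.0 CPM, with 3 of the 8 at 0 in all libraries, Pecam1 at 18 counts and Cdh5 at 5 over all libraries. Glial markers summed to 4.53 to 12.3 and 3.46 to 17.0 CPM, with Sox10 at 2 counts. Mural markers summed to 1066 to 1935 and 849 to 2286 CPM, and Abcc9 was called lower (log2 fold change -3.71, edgeR adjusted p = 0.0139). Most of the mural sum was Acta2, at 798 to 2254 CPM, with Rgs5 at 645 CPM in Jag2sm replicate 1. Cspg4 had 53 counts over all libraries, Pdgfrb 13, Myh11 2 and Kcnj8 2. The 6 tenocyte markers summed to 115 to 128 CPM in WT and 30.6 to 76.6 CPM in Jag2sm. Most of that sum was Scx, the 1 tested gene of the list, which was called lower (-1.34, edgeR adjusted p = 0.0223), while the other 5 had at most 21 counts each over all libraries. The part of these cells in the members' levels was not tested.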

How the data were processed

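MuSC RNA of 3 WT and 4 Jag2sm libraries was sequenced as nanopore direct cDNA. Per the labels and the study's methods, the authors called bases with a minimum quality score of 7, aligned reads with minimap2 2.17 to GRCm39 and counted reads per gene with HTSeq; the deposited values are whole-number counts, not normalized. The annotation release and strand setting are not given in the sources used here. A series-wide table of the authors' own comparison was not used.

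The 5 summary rows of each file were left out of library sizes. Genes passing filterByExpr (minimum count 10, minimum total 15) were tested by the edgeR 4.0.16 quasi-likelihood test with TMM scaling in R 4.3.3, all 7 libraries and no covariates, with Benjamini-Hochberg adjustment over 9489 genes and a threshold of 0.05. Log2 CPM used a prior count of 2. The code was tested on simulated data. Alternatives used DESeq2 1.42.0, limma 3.58.1 voom, other scaling, filters, thinning, transcript length, and each library left out. The annotation was GENCODE M39, which held 56017 of 56748 gene identifiers.

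The labels' batch tag equals the replicate number. Libraries of equal number were compared on that tag alone, which does not show that they were processed together. The correlations of paired deviations from the group means were 0.0740, 0.0144 and 0.0539 for batches 1 to 3.

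The members and lists were chosen with earlier results of these data known, and Spp1 is among genes that the study listed from these libraries. All 10 members are named. Of each related list, called genes are named where there are 6 or fewer, and of marker lists mainly called or defining genes.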

Additional observations from a re-analysis of the deposited data

Results flagged for a closer look

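The Spp1 level of Jag2sm replicate 1, 8234 CPM, stood far from the other 3 Jag2sm libraries (3340 to 4124 CPM). Its gap to the nearest library was 0.84 of the group's range, above Dixon's 95% critical value of 0.829 for 4 samples. Chance marks about 1 in 20 groups in this way, and 9 members were examined. Without that library the log2 fold change of Spp1 was 1.27, with an edgeR adjusted p of 0.0492. The same library held the highest Rgs5 level, 645 CPM. The mural markers Pdgfrb, Kcnj8, Abcc9 and Myh11 were at 0 in it. They were sparse, with 13, 2, 44 and 2 counts over all 7 libraries, and the floor of this library was 4.24 CPM. Their values of 0 therefore carry little information. The part of mural cells in its Spp1 level was not tested.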

How the results depend on the processing

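The Spp1 difference kept its direction under all 18 alternatives and its call under 13. The members called higher were 3 with no filter on low counts (Spp1, Tnc and Fn1), 0 with the replicate block, 2 with the length trend removed together with the replicate block (Spp1 and Tnc), and 0 to 1 with single libraries left out. The members called lower were 0, and 1 (Bgn) with no filter. The replicate block changed no other member's call. Log2 fold changes near 0 changed sign. With limma-voom, Sparc was at 0.0173, Thbs1 at -0.36 and Fbln2 at -0.33. With single libraries left out, Sparc ranged from -0.49 to 0.18, Thbs1 from -0.32 to 0.55, Fbn1 from -0.23 to 0.49 and Fbln2 from -0.70 to 0.65, and none of these passed the test. Among related genes, the main settings called 1 of the other glycoproteins and 0 receptors higher, and both counts reached 5 with no filter. The causes were not tested.

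Over all genes, 135 were called higher and 459 lower. These became 206 higher in DESeq2, 241 higher with library size alone, 468 and 780 with no filter, 43 and 231 with at least 10 counts in every library (2981 genes, 5 members tested), and 54 and 212 after thinning (3528 genes, 5 members tested). Higher calls numbered 33 without WT replicate 2, 18 without WT replicate 3, 75, 28 and 221 without Jag2sm replicates 1, 2 and 3. Lower calls numbered 305 without WT replicate 3 and 215 without Jag2sm replicate 2. WT replicate 1, at 187834 counts, limits what can be seen of Thbs2, Fbn1, Bgn and Fbln2, which had 1, 4, 14 and 12 counts there. Among the related genes, Ecm1 was at the floor of that library, 17.3 CPM, and Vcan was under it, at 11.5 CPM.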
